A study of Mus musculus with 6 samples.

Results

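A set of genes of blood vessels and meninges were followed in primary mouse neurons in which the potassium channel gene Kcna1 was switched on with CRISPR activation. The members were taken by name: Col1a1, Col1a2, Col3a1, Dcn and Sparc for extracellular matrix, Pdgfrb and Rgs5 for mural cells, and Cldn5, Pecam1 and Flt1 for endothelium, which made 10 of the 50508 symbols listed and 10 of the 19504 genes above 0 in at least 1 library. RNA sequencing was done on 6 libraries, 3 from Ctrl-dCas9A neurons, which carried a guide RNA against the bacterial gene lacZ (sgLacZ, the control genotype in the labels), and 3 from Kcna1-dCas9A neurons, which carried a guide to the Kcna1 promoter (sgKcna1). Both groups were transduced at 1 day in vitro (DIV) with lentivirus that expressed dCas9 fused to a VP160 transcriptional activator under the Ef1alpha promoter, which is active in many cell types and is not limited to neurons. Pups were C57Bl/6J at postnatal day 0 in the study's methods. The labels call the cells hippocampal, whereas the culture methods describe cortex, and the time of RNA collection is given both as 10 DIV and as 14 to 16 days after transduction. The study's design speaks of independent repetitions in general, without saying whether the 3 libraries of a group came from separate cultures or pups, so all p-values measure the spread between these libraries, which may be technical.

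Fibroblasts of the meninges build the collagen covering of the brain, and they can be carried into a culture when the membranes are not fully stripped. Vessels bring endothelial cells, which line the lumen and seal it with tight junctions, and mural cells, the pericytes and smooth muscle that wrap the tube and share a basement membrane with it. Genes of these classes are therefore used to see what a dissociated neuronal culture holds besides neurons, although some of them, Sparc above all, are also made by glia in the brain.

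The values are per-million read counts rounded to whole numbers, so a value of 1 stands for anything from 0.5 to 1.5 and the read depth is unknown. Each library summed to between 999047 and 999717 and had 14788 to 15417 genes above 0. The predicted nuclear gene Gm42418 alone took 15.3 to 20.2% of each library. The targeted gene followed the labels, with Kcna1 at 16 in every control library and rising to 68, 47 and 65 under sgKcna1 (log2 fold change 1.83, SE 0.16, limma with Benjamini-Hochberg adjusted p = 0.0345). Neuronal markers were present in both groups, and none of 10 passed. Tubb3, a neuronal tubulin, was at 1862, 1752 and 2605 in controls against 3855, 3221 and 4591 (log2 fold change 0.91, adjusted p = 0.0556 in limma, groups apart, past 0.05 in 8 of 17 alternatives), and Stmn2, a regulator of microtubules, lay between 1648 and 1924 with overlap. The 10 neuronal markers summed to 6116, 6145 and 7007 in controls and to 8069, 7178 and 8562 in Kcna1-dCas9A, but without Tubb3 to 4254, 4393 and 4402 and then 4214, 3957 and 3971, so Tubb3 carried the higher sum. Of the 10, 3 had groups apart and higher (Tubb3, Nefl and Slc17a7), beside 8.98% of all genes tested. Another 3 were apart and lower (the microtubule protein Map2, the synaptic Snap25 and the GABA-synthesizing Gad1), beside 13.3% of all genes tested. The median log2 fold change of the 10 was -0.02.

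Sparc was the one abundant member, and it was higher in every Kcna1-dCas9A library than in any Ctrl-dCas9A library, yet its difference did not pass the adjusted threshold over all genes. The other 9 members were listed between 0 and 6 in every library, and none passed. In all, 0 of the 10 members passed an adjusted p of 0.05, against 226 of 19504 genes tested (1.16%), of which 68 were higher and 158 lower (963 higher and 758 lower after rescaling by the median of ratios). By unadjusted p, 1 of the 10 members was under 0.05, as were 23.2% of all genes tested. Sparc, 1 of 10, had groups that did not overlap, which 22.2% of all genes tested also had, and 8.98% in the direction of Sparc (16.2% after rescaling by the median of ratios).

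The promoter windows below stand for the member that was abundant and for 4 that were near 0, in the order matrix, mural, endothelial. Each is the 150 bases just upstream of the gene's first base in the RefSeq table (GRCm38.p6), read 5′ to 3′ on the gene's strand. Windows were used for 6 of the 10 members, and the other members had no match there or were left out. Capitals mark a TATA box, searched as TATAAA on both strands, or a CCAAT box, searched by its own letters on both strands. A CCAAT box that lies on the opposite strand appears as its reverse complement.
Sparc chr11:55420081-55420230, - strand: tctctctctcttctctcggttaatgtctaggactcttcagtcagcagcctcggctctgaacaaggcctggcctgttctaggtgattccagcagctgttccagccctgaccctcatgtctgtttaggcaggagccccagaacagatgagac
Col1a2 chr6:4505468-4505617, + strand: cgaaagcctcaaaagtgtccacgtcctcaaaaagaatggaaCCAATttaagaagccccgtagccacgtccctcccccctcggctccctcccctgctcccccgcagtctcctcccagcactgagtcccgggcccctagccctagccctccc
Col3a1 chr1:45311388-45311537, + strand: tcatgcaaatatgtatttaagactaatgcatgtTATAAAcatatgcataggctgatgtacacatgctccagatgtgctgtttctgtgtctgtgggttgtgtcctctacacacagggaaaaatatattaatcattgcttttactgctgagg
Rgs5 chr1:169655351-169655500, + strand: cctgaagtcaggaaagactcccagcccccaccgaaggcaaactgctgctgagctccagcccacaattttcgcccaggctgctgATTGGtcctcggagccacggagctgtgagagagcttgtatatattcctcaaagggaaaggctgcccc
Cldn5 chr16:18776697-18776846, + strand: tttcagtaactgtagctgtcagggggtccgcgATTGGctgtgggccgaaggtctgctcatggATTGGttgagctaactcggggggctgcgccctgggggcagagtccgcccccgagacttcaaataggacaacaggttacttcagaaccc

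The Sparc window, from the highest member, held neither box. It also lacked the core bound by ETS factors, searched as GGAAG on both strands. The Col1a2 and Rgs5 windows held 1 CCAAT box each and the Cldn5 window held 2, and this box was found in 24.5% of all 32851 promoter windows of this length. The Col3a1 window held 1 TATA box, as did 7.57% of all windows. The window of Flt1, the sixth member used, is not printed because its start in the table lies inside the longer gene model. It held 1 TATA box and 3 ETS cores, and the ETS core occurred in 47.7% of all windows. The GC content was 54.0% for Sparc, 62.7% for Col1a2, 37.3% for Col3a1, 57.3% for Rgs5 and 58.7% for Cldn5. These matches describe the letters only.

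Sparc encodes a secreted calcium-binding glycoprotein that binds collagen and is made by fibroblasts, endothelial cells and several kinds of glia. Its per-million value was 234, 217 and 277 in controls, against 305, 314 and 338 in Kcna1-dCas9A neurons. The groups did not overlap, the highest control being 277 and the lowest Kcna1-dCas9A library 305. The means were 243 ± 30.9 (SD, n = 3) and 319 ± 17.1 (SD, n = 3), a ratio of 1.31. The log2 fold change was 0.40 (SE 0.11, 95% interval 0.13 to 0.66), with a limma p of 0.00906 and a Benjamini-Hochberg adjusted p of 0.0889. An exact two-sided permutation test gave p = 0.1, the smallest that 3 libraries against 3 allow. Among the 8050 genes with a mean of at least 10, tested alone, 2289 (28.4%) passed, and Sparc was one of them at an adjusted p of 0.0263. Without Ctrl-dCas9A library 3, which had the highest control value, the log2 fold change was 0.50 and the adjusted p 0.0265, and leaving out any other single library left Sparc short of the threshold. Rescaling the libraries by the median of ratios moved the log2 fold change of Sparc to 0.49 (adjusted p = 0.0345, limma) and the median over all genes from -0.02 to 0.02.

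**Figure D1:**
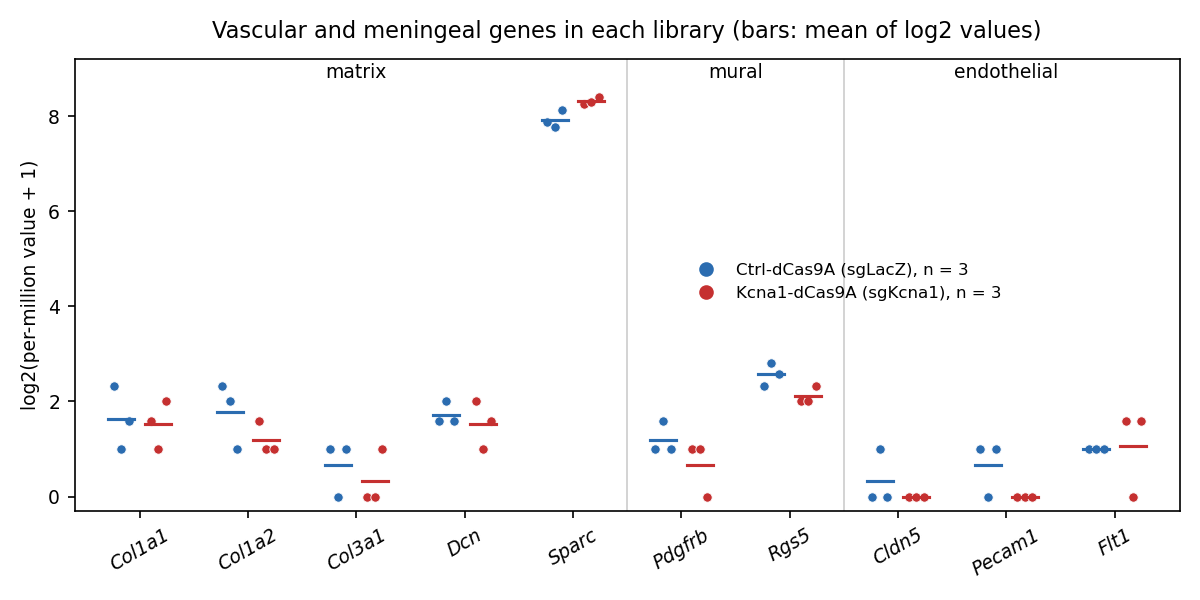
Value of each of the 10 vascular and meningeal genes in each library, on the log2(per-million value + 1) scale, with Ctrl-dCas9A in blue and Kcna1-dCas9A in red; bars are the mean of the 3 log2 values. Sparc stands far above the other 9 genes and is the one gene whose groups are apart, from 217 to 277 in controls and from 305 to 338 in Kcna1-dCas9A.

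Sparc's mean exceeded that of 97.5% of the genes tested, and it made up 92.7 to 95.2% of the summed value of the 10 members in controls and 95.9 to 97.8% in Kcna1-dCas9A. The kit reads the 3′ end of each transcript, and the sources used here do not say whether the values were divided by gene length, so levels of different genes are set side by side only as deposited. On that scale Sparc in controls was at 243, whereas Col1a1 and Col1a2, the chains of the collagen that Sparc binds, were at 2.33 and 2.67.

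The collagen and proteoglycan members were close to the lower end of the scale in both groups. Col1a1, which encodes the first chain of type I collagen, read 4, 1 and 2 in controls and 2, 1 and 3 under sgKcna1. The partner chain Col1a2 was at 4, 3 and 1 and then at 2, 1 and 1. For both genes the groups overlapped, and the highest value lay in Ctrl-dCas9A library 1. The log2 fold change was -0.11 (SE 0.43, 95% interval -1.12 to 0.90) for Col1a1 and -0.58 (SE 0.41, 95% interval -1.54 to 0.38) for Col1a2. Both intervals span falls as well as rises, so a difference of that size in either direction was not detectable here. The adjusted p-values from limma were 0.899 and 0.458.

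Col3a1, the type III collagen of soft tissue and vessel walls, read 1, 0 and 1 in controls, then 0, 0 and 1 under sgKcna1. Dcn, encoding decorin, a proteoglycan that coats collagen fibrils, read 2, 3 and 2 and then 3, 1 and 2. Both overlapped between the groups. Their log2 fold changes were -0.33 (SE 0.42) and -0.19 (SE 0.33), with adjusted p-values of 0.602 and 0.712 in limma.

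Rgs5, a regulator of G protein signalling that marks pericytes, was the highest of the 9 low members. Control libraries held 4, 6 and 5 and Kcna1-dCas9A libraries 3, 3 and 4, so the groups met at 4. The means were 5.0 ± 1.0 and 3.33 ± 0.577 (SD, n = 3 each), with a log2 fold change of -0.46 (SE 0.24, 95% interval -1.04 to 0.11, adjusted p = 0.28 in limma). Pdgfrb, the receptor through which platelet-derived growth factor recruits pericytes, read 1, 2 and 1 in controls against 1, 1 and 0. The log2 fold change of Pdgfrb was -0.53 (SE 0.37, 95% interval -1.41 to 0.35), with an adjusted p of 0.458 in limma, and its groups overlapped.

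The endothelial members were at the rounding limit. Cldn5, the main claudin of the blood-brain barrier, was listed at 1 in Ctrl-dCas9A library 2 and at 0 in the other 5 libraries. Pecam1, an adhesion molecule of endothelial junctions, was listed at 1, 0 and 1 in controls and at 0 in all 3 Kcna1-dCas9A libraries. Flt1, a receptor for vascular endothelial growth factor, read 1, 1 and 1 in controls against 2, 0 and 2. No fold change is given for Cldn5 and Pecam1, which were at 0 throughout Kcna1-dCas9A, and their adjusted p-values in limma were 0.513 and 0.268. The log2 fold change of Flt1 was 0.06 (SE 0.46, 95% interval -1.04 to 1.15, adjusted p = 0.976), and with a pseudocount of 0.1 in place of 1 it was -0.53.

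**Figure D2:**
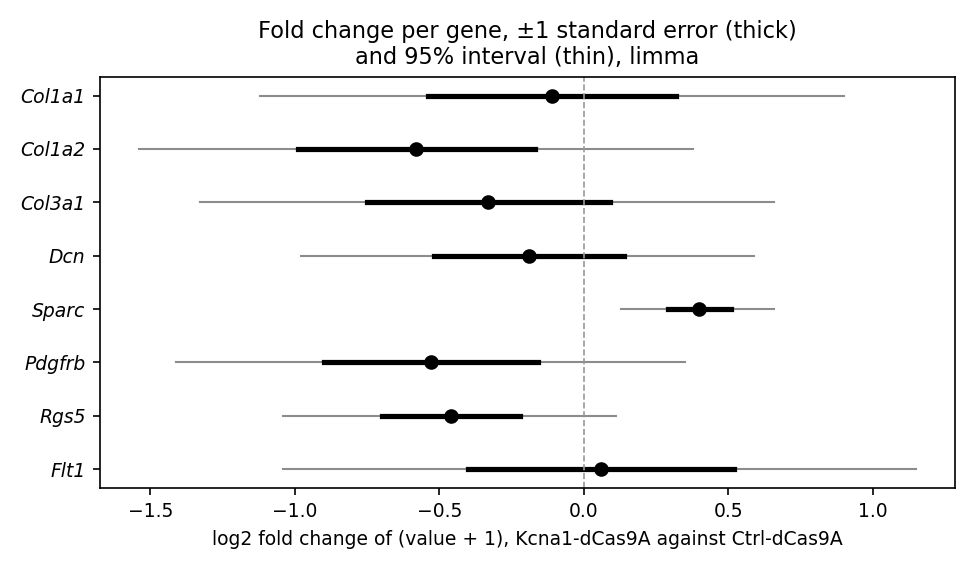
Log2 fold change of (value + 1), Kcna1-dCas9A against Ctrl-dCas9A, for the 8 members above 0 in both groups; points are limma estimates, thick lines 1 standard error either side and thin lines the 95% interval. The interval of Sparc, 0.13 to 0.66, lies above 0 and those of the other 7 genes cross it.

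Of the 8 members above 0 in both groups, 6 had a log2 fold change below 0, Sparc and Flt1 being the exceptions. The median over these 8 was -0.26, beside -0.02 over all genes tested, where 30.3% of genes had a mean below 1, as did 3 of the 10 members. The number of members above 0 was 9, 8 and 9 in controls, against 7, 6 and 7 in Kcna1-dCas9A. Over all genes listed, the number above 0 was 15128, 14788 and 15044 in controls and 15339, 15106 and 15417 in Kcna1-dCas9A. Without Sparc, the members summed to 18, 17 and 14 in controls and to 13, 7 and 13 in Kcna1-dCas9A. These sums did not overlap as printed, but rounding alone allows 10 to 18.5 for the lowest control and 10 to 17.5 for the highest Kcna1-dCas9A libraries. With Rgs5 left out too, the sums were 14, 11 and 9 against 10, 4 and 9 and overlapped. In such bulk samples fewer cells of a class and less RNA per cell cannot be told apart.

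Wider lists of the same cell classes showed the same low levels with a few exceptions. Of 24 further endothelial genes, 14 were above 0 in any library and none passed the adjusted threshold in either direction (median log2 fold change -0.15). The 10 listed at 0 in all 6 libraries included Cdh5, the cadherin of endothelial junctions, the receptor kinase Tie1 and the von Willebrand factor gene Vwf. Others were low but above 0 in all 6 libraries. Among these were Kdr, at 4, 5 and 3 in controls against 4, 2 and 3, and Slco1c1, at 8, 4 and 12 against 11, 7 and 7. The highest endothelial genes were Egfl7, a secreted vascular factor, at 15, 18 and 24 in controls and 25, 31 and 25 in Kcna1-dCas9A (log2 fold change 0.50, SE 0.20, adjusted p = 0.182 in limma), and Ramp2, a partner of the adrenomedullin receptor, at 7 to 12 and 10 to 17. The groups of Egfl7 did not overlap, and those of Ramp2 did.

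Of 17 further mural genes, 8 were above 0 and none passed (median log2 fold change -0.24). The contractile genes Myh11, Des and Cnn1 were at 0 in all 6 libraries. Acta2, smooth muscle actin, was at 4, 2 and 1 and then at 0, 2 and 0. Tagln lay the other way, at 1, 0 and 0 and then at 3, 1 and 0, and the groups overlapped for both genes. Rgs4, a relative of Rgs5 that neurons also express, held most of the mural sum, at 167, 164 and 186 in controls and 208, 202 and 196 in Kcna1-dCas9A (log2 fold change 0.23, SE 0.09, adjusted p = 0.174). Its direction was opposite to that of Rgs5. Mcam, an adhesion molecule of mural and endothelial cells, came next, at 8, 5 and 5 against 5, 5 and 3. Without Rgs4 the mural genes summed to 20, 16 and 10 in controls and 13, 11 and 7 in Kcna1-dCas9A, with overlap.

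Of 28 further fibroblast and meningeal genes, 25 were above 0, and 3 (Slc47a1, Mgp and Col6a3) were at 0 in all libraries. Of the 25, 1 passed and was lower, beside 1.16% passing over all genes tested. The gene that passed was Igfbp2, an insulin-like growth factor binding protein that is also expressed by astrocytes, at 211, 185 and 128 in controls and 64, 79 and 80 in Kcna1-dCas9A (log2 fold change -1.20, SE 0.20, adjusted p = 0.0496 in limma, and 0.0786 with no intensity trend). Next came Bgn, the proteoglycan biglycan and a relative of Dcn, at 21, 21 and 27 against 28, 24 and 29 (log2 fold change 0.23, SE 0.15, adjusted p = 0.437). Without Igfbp2 the list summed to 91, 99 and 94 in controls and to 91, 86 and 97 in Kcna1-dCas9A, so the groups overlapped.

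**Figure D3:**
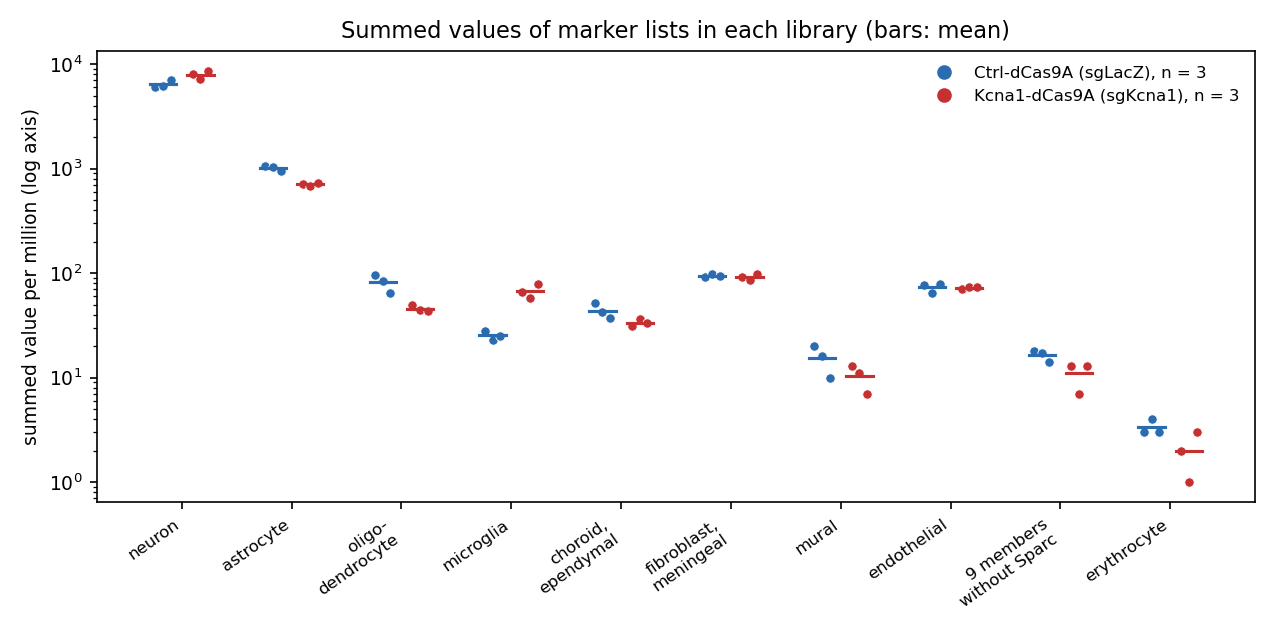
Summed per-million value, on a log axis, of the marker lists of each cell class in each library, with bars for the mean of 3 libraries; Igfbp2 is left out of the fibroblast and meningeal sum and Rgs4 out of the mural sum. Neuronal sums, 6116 to 7007 in controls and 7178 to 8562 in Kcna1-dCas9A (3957 to 4402 over both groups without Tubb3), lie far above the 9 vascular and meningeal members without Sparc, at 7 to 18, while the astrocyte sum was lower and the microglial sum higher in every Kcna1-dCas9A library.

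Among markers of glia, which can also express Sparc, 1 of 10 microglial, 3 of 10 astrocyte and 1 of 9 oligodendrocyte genes were called. Over all genes tested the share called was 1.16%. The 10 microglial markers summed to 28, 23 and 25 in controls and to 66, 58 and 78 in Kcna1-dCas9A, groups that did not overlap. Of the list 8 were above 0, P2ry12 and Tmem119 were at 0 in all libraries, and C1qa passed. C1qa, a complement subunit, was at 9, 6 and 6 and then at 23, 22 and 24 (log2 fold change 1.61, adjusted p = 0.0486 in limma), and Aif1, a cytoskeletal marker of microglia, was at 10, 6 and 12 and then at 18, 17 and 26. In all, 5 of the 10 microglial markers had groups apart and higher, beside 8.98% of all genes tested, and the median log2 fold change of the 8 above 0 was 1.26. C1qc and Tyrobp, which act in complement and in receptor signalling, had log2 fold changes of -0.19 and 0.19. The 10 astrocyte markers summed to 1070, 1035 and 953 in controls and to 708, 687 and 722 in Kcna1-dCas9A, and 3 passed, all lower (Aqp4, a water channel, Aldoc, a glycolytic enzyme, and Sox9, a transcription factor). The glutamate transporters Slc1a3 and Slc1a2 were the most abundant of the list, at 201 to 270 and 209 to 226 in controls and 140 to 162 and 162 to 191 in Kcna1-dCas9A. In all, 7 of the 10 astrocyte markers had groups apart and lower, beside 13.3% of all genes tested, among them Gja1, a gap junction protein, at 24, 17 and 19 against 9, 10 and 9 (adjusted p = 0.0512). The other 3 overlapped, with Gfap, an intermediate filament, at 63, 45 and 57 against 46, 48 and 70 (log2 fold change -0.02), Aldh1l1 at -0.01 and S100b at 0.32 on the log2 scale. With no intensity trend in the fit, the adjusted p was 0.112 for Aldoc and 0.117 for Sox9. Sparc was higher where the microglial sum and Tubb3 were higher and the astrocyte sum lower, and the part of any of these in the Sparc difference was not tested. Oligodendrocyte markers summed to 65 to 96 in controls and 43 to 49 in Kcna1-dCas9A, with the lineage transcription factors Olig2 lower (log2 fold change -1.05, adjusted p = 0.0497) and Olig1 at 34 to 59 against 15 to 24 (adjusted p = 0.0556). These genes held most of that sum, and myelin genes lay the other way, with Mbp at 3, 3 and 2 against 7, 4 and 7 (log2 fold change 0.91, adjusted p = 0.113 in limma, groups apart) and Cnp at 6, 3 and 6 against 7, 6 and 9 (log2 fold change 0.50). The adjusted p of Olig2 was 0.0602 with no intensity trend. Choroid plexus and ependymal markers summed to 37 to 52 and 31 to 36, with Foxj1, the regulator of motile cilia, at 7, 5 and 4 against 0, 0 and 1 (adjusted p = 0.0496) and Ttr, transthyretin, the highest, at 23 to 35 against 23 to 29. The log2 fold change of Foxj1 was -2.30 with a pseudocount of 1, -0.95 with 5 and -4.57 with 0.1, where its adjusted p was 0.0679. Haemoglobin and other red cell genes, a sign of blood, summed to 3, 4 and 3 in controls and 2, 1 and 3 in Kcna1-dCas9A, and none passed.

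Several genes that fold and modify collagen chains had higher values than the collagens, whereas the crosslinking enzymes Lox, Loxl2 and Loxl3 were listed between 0 and 2 and Loxl1 between 2 and 7. Of 18 collagen synthesis genes, 17 were above 0, and 1 of these passed and was lower, beside 1.16% passing over all genes tested. The median log2 fold change was -0.25. Serpinh1, the chaperone of procollagen in the endoplasmic reticulum, was at 65, 66 and 40 in controls against 13, 15 and 17. The groups were well apart, and the log2 fold change was -1.83 (SE 0.22, adjusted p = 0.0486 in limma). With 1 library left out, the log2 fold change stayed between -2.06 and -1.71 for Serpinh1 and between 1.73 and 1.99 for Kcna1, but 0 genes passed in those smaller fits unless the library left out was Ctrl-dCas9A library 3. Without that library the adjusted p was 0.0174 for Serpinh1 and 0.0181 for Igfbp2. P4hb, the disulfide isomerase subunit of prolyl 4-hydroxylase, was at 106, 110 and 80 against 69, 66 and 67 (log2 fold change -0.53, adjusted p = 0.075) and did not pass. Of the 17 tested, 5 had groups apart and lower, beside 13.3% of all genes tested, and 2 (Plod3 and Bmp1) apart and higher, beside 8.98%.

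**Figure D4:**
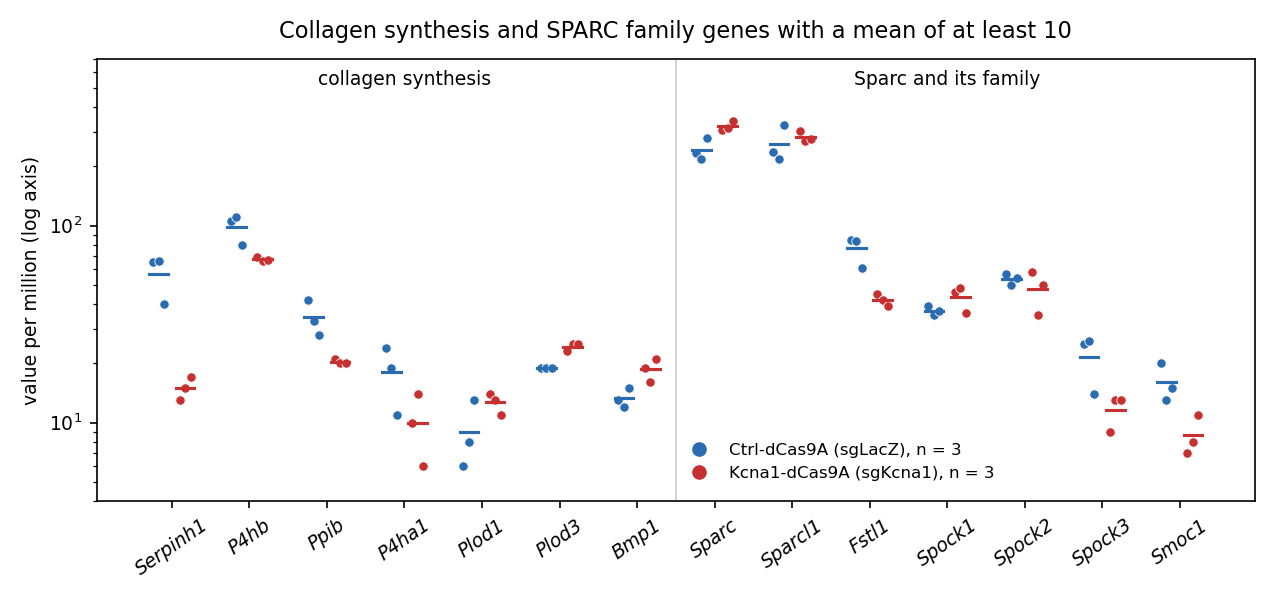
Per-million value, on a log axis, of the 7 collagen synthesis genes and of Sparc and 6 relatives with a mean of at least 10, in each library, with bars for the mean of 3 libraries. Serpinh1 fell from 40 to 66 in Ctrl-dCas9A to 13 to 17 in Kcna1-dCas9A, while Sparc lay higher and Sparcl1 overlapped.

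Of 7 other genes of the Sparc family none passed, 5 had a log2 fold change below 0 and 2 above, and the median was -0.53. Sparcl1, the closest relative and an astrocyte product, was at 237, 219 and 324 in controls and 302, 268 and 274 in Kcna1-dCas9A, and its groups overlapped (log2 fold change 0.13, SE 0.15, adjusted p = 0.583 in limma). Fstl1, a follistatin-like glycoprotein, was at 85, 84 and 61 against 45, 42 and 39 (log2 fold change -0.84, SE 0.15, adjusted p = 0.0527), groups apart and lower. Smoc1 and Spock3 were also apart and lower, which made 3 of 7, beside 13.3% of all genes tested.

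The pathway lists of the low members held no call. For Pdgfrb, the PDGF list of 6 genes had 5 above 0, and the ligands of this receptor were at the floor, Pdgfb being listed at 1 in a single control library and Pdgfd at 0 throughout. The highest of the list were Pdgfa, the ligand of Pdgfra, at 47, 43 and 40 in controls and 34, 31 and 25 in Kcna1-dCas9A (log2 fold change -0.52, adjusted p = 0.0902 in limma) and Pdgfra, the receptor of oligodendrocyte precursors and fibroblasts, at 7, 9 and 6 against 2, 2 and 5. For Flt1, the VEGF list of 9 genes had 8 above 0, and its highest genes were the co-receptors Nrp1, at 371, 381 and 332 against 376, 320 and 328, and Nrp2, at 334, 354 and 348 against 322, 266 and 249 (log2 fold change -0.31, adjusted p = 0.147), which neurons use in axon guidance. Vegfa, the main ligand, was at 14, 20 and 20 against 20, 31 and 18. For Cldn5, all 13 further tight junction genes were above 0 and none passed, with the scaffold gene Tjp1 at 11, 13 and 14 against 13, 7 and 8.

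The RGS family, to which Rgs5 belongs, had all 15 further members above 0 and none passed. Its highest members were Rgs4, given above, and Rgs2, at 133, 151 and 157 against 157, 154 and 156. Basement membrane genes, on which mural and endothelial cells rest, were all above 0 as well, 15 of 15, and none passed (median log2 fold change 0.12). Agrn, the proteoglycan agrin of synapses and vessels, was highest, at 199, 244 and 392 against 422, 370 and 408 with overlap (log2 fold change 0.58, adjusted p = 0.192), and Lamb1, a laminin chain, was at 32, 30 and 32 against 38, 35 and 41. The type IV collagen Col4a1, which lines vessels, was at 8, 8 and 7 against 6, 9 and 11.

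Of 10 further small leucine-rich proteoglycans related to Dcn, 7 were above 0 and none passed. Of 16 genes of TGF-beta signalling, 14 were listed in the files and 12 above 0, and none passed. Its highest member was the ligand Tgfb2, at 75, 91 and 79 against 97, 78 and 89, followed by the signal transducer Smad4 at 52, 51 and 52 against 52, 48 and 41. Among 10 matrix proteases and their inhibitors, 9 were above 0 and none passed, and Timp2, an inhibitor of matrix metalloproteinases, was highest at 997, 929 and 935 against 1009, 964 and 898, followed by Timp3 at 79, 69 and 53 against 57, 51 and 54.

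The mean log2 level of Col1a1, Col1a2 and Col3a1 was followed most closely over the 6 libraries by Dusp11, an RNA phosphatase, with r = 0.982 (Pearson, over 8050 genes with a mean of at least 10). Mrrf (r = 0.98), Gabra4 (0.972), Vldlr (0.969) and Ppp1r12b (0.968) came next. All of these were highest in Ctrl-dCas9A library 1 and lowest in Kcna1-dCas9A library 2, as the collagens were. The points are 6 libraries that share their scaling, 57 genes exceeded an r of 0.9, and the collagen values are whole numbers of at most 4, so the order is a description. For Sparc the closest were Gm15834 (r = 0.998), Rtfdc1 (0.997), Rab24 (0.996), Coasy (0.995) and Arfgap1 (0.995), a list added after the values were seen, and 825 of 8049 genes exceeded an r of 0.9.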

How the data were processed

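RNA of 6 libraries from primary mouse neurons (3 sgLacZ, 3 sgKcna1) was sequenced from the 3′ end with the QuantSeq FWD kit. The study's methods name Bowtie2 and NCBI37/mm9, whereas the submitters' processing notes name STAR 2.7, featureCounts, DESeq2 and mm10. The deposited values, 1 whole number per gene symbol and library, sum to 999047 to 999717 and are treated as a score: per-million values that the authors rounded to whole numbers. Raw counts and depth cannot be recovered, so no count model was run, and the rounding limits precision for low genes.

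Values were tested as log2(value + 1) over the 19504 genes above 0 in at least 1 library with limma 3.58.1 in R 4.3.3 (lmFit, eBayes with an intensity trend, group as the factor), two-sided, with Benjamini-Hochberg adjustment and a threshold of 0.05. Fold changes on this scale understate the change of low genes. Groups apart means that the ranges of the 3 libraries do not overlap. No pair of the 6 libraries held identical values.

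The members and lists were chosen with earlier results of these data known. Named genes are the members, Kcna1, in each list the called genes and the 2 with the highest mean, and the 5 genes most alike to the collagens; 1 gene under this rule is not reported here. Others named for an overlap, a value of 0 or a role were chosen after their values were seen. Alternatives were pseudocounts of 0.1 and 5, filters on low values, rescaling, leaving out Gm42418 with rescaling, other variance settings, a replicate block and leaving out each library.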

Additional observations from a re-analysis of the deposited data

How the results depend on the processing

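Sparc kept its direction in all 17 alternatives, with log2 fold changes of 0.32 to 0.52 and limma adjusted p-values of 0.0184 to 0.257, and passed 0.05 in 6 of them, which made 1 member called in place of 0. These were no low-value filter (0.40, adjusted p = 0.0334), a mean of at least 10 (0.40, adjusted p = 0.0263), median-of-ratios rescaling (0.49, adjusted p = 0.0345), upper-quartile rescaling (0.52, adjusted p = 0.0294), robust variance (0.40, adjusted p = 0.0184) and leaving out sgLacZ replicate 3 (0.50, adjusted p = 0.0265). Leaving out 1 library gave 0.32 to 0.50 for Sparc and 0 to 1 members called. The other 9 members passed in 0 of 140 fits, with 6 changes of sign: Col1a1 ranged from -0.43 to 0.24, Dcn from -0.43 to 0.07 and Flt1 from -0.21 to 0.58 when 1 library was left out, and Flt1 was -0.53 with a pseudocount of 0.1.

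The 226 genes called became 627 with a pseudocount of 0.1, 475 with 5, 2405 with no low-value filter (where most variances were exactly 0 and limma's prior is unreliable), 1543 at a mean of at least 1, 2289 at a mean of at least 10, 1808 with Gm42418 removed and the libraries rescaled, and 2884 with robust variance. With no intensity trend they were 201 (117 higher, 84 lower), and Igfbp2, Olig2, Aldoc and Sox9 lost their calls. They became 1721 by median of ratios (963 higher, 758 lower) and 2058 by upper quartile (1226 higher, 832 lower), against 68 higher and 158 lower as deposited. Leaving out 1 library gave 0 to 2711, the highest without sgLacZ replicate 3 and 0 for each other library. With the replicate block 0 genes passed, and Sparc was 0.40 (adjusted p = 0.12). Deviations from the group means correlated at 0.014, 0.114 and 0.154 for same-numbered libraries and at -0.156 to 0.099 for the other pairs. With 3 libraries per group these values cannot settle whether the numbers pair the libraries. The cause of these shifts was not tested. Among genes named for context, upper-quartile rescaling turned Nrp1 to 0.04, Stmn2 to 0.04 and Ttr to 0.03, and leaving out sgLacZ replicate 1 turned Ttr to 0.07 (-0.22 to 0.07 over the libraries left out). Rounding to whole numbers and unknown depth limit the 9 low members.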
